A study of Mus musculus with 12 samples.

Results

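The S100A and annexin genes described here are 10 genes, S100a4, S100a6, S100a10 and S100a11 and the annexins Anxa1, Anxa2, Anxa3, Anxa4, Anxa5 and Anxa7, chosen by symbol among the 21956 genes of the count table. All 10 were measured and all passed the filter on low counts in every comparison. They were followed in brain tissue next to the hematoma after intracerebral hemorrhage (ICH), which was induced by collagenase injected into the right striatum, and in sham-operated mice, which had the same operation without collagenase. Bulk poly(A) RNA was sequenced from 12 mice, 3 in each group. The Sham-Fabp4fl/fl and ICH-Fabp4fl/fl mice carried floxed alleles of Fabp4, which encodes a fatty acid chaperone. The Sham-Fabp4CKO and ICH-Fabp4CKO mice carried the same alleles together with a tamoxifen-inducible Cre recombinase driven by TMEM119, a microglial gene, and had received tamoxifen on consecutive days before the operation. The ICH tissue was taken at 48 h. The labels do not give the age or sex of these mice or the time of the sham tissue, and whether the Fabp4fl/fl mice received tamoxifen is not given in the sources used here. Cre acts in microglia, while the RNA came from all cells of the tissue. Fewer cells of a type and less RNA per cell cannot be told apart in such samples.

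S100 proteins are small calcium-binding proteins with a pair of EF hands. On binding calcium they expose a surface that docks onto partner proteins, and some members are also secreted and act on receptors such as RAGE. Annexins bind phospholipids of membranes in a calcium-dependent way and take part in membrane repair, vesicle traffic and the control of inflammation. The families meet physically: S100A10, also called p11, which no longer depends on calcium, joins annexin A2 in a heterotetramer that sits at the cell surface and helps plasminogen activation, and S100A11 binds annexin A1, while S100A6 binds several annexins. In the injured brain many of these genes are known from reactive glia, vessel cells and infiltrating leukocytes.

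The 4 S100A members lie on mouse chromosome 3 in 2 groups of neighbors: S100a4 and S100a6 are separated by 1 protein-coding gene, S100a5, and S100a11 and S100a10 have no protein-coding gene between them, in RefSeq's annotation of GRCm38.p6. Of the annexins, Anxa5 is also on chromosome 3, and the others lie on chromosomes 5, 6, 9, 14 and 19. RefSeq promoter windows were matched by symbol for 8 of the 10 members, all but S100a10 and Anxa3. The upstream stretches of 4 of them are printed because they show where the members that rose after ICH share, or lack, the letters of promoter motifs. Each is on the plus strand of GRCm38.p6 and reads 5′ to 3′ toward the RefSeq start, leaving out bases that lie in an annotated exon. Capitals mark the AP-1 letters TGANTCA, the TATA letters TATAAA and the GC-box letters GGGCGG. AP-1 is bound by Fos and Jun proteins.
S100a4, chr3:90603630-90603769: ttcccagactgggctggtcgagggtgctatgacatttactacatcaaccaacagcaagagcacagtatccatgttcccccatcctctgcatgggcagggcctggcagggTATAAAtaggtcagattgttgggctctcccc
S100a6, chr3:90612754-90612881: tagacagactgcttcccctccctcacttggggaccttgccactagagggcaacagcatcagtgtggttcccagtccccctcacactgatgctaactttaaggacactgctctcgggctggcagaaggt
S100a11, chr3:93520356-93520487: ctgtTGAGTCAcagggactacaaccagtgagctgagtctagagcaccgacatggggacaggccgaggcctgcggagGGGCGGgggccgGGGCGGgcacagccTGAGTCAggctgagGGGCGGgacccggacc
Anxa2, chr9:69453543-69453619: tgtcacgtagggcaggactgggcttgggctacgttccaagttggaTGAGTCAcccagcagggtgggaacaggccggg
Counting the base before the start as -1, the S100a11 window held TGANTCA at -136 and -38, and the Anxa2 window held it at -95. No other member's window did. The 8 genes had 10 windows, as Anxa4 and Anxa7 had 2 each. TGANTCA was thus found in 2 of the 8 genes and 2 of the 10 member windows. It was found in 7.81% of all 32851 windows searched on both strands. TATAAA was found in S100a4 at -31, in Anxa1 at -32 and in Anxa2 at -17. This makes 3 of 8 genes and 3 of the 10 member windows, against 13.6% of all windows. GGGCGG was found in 4 of 8 genes, S100a11, Anxa2, Anxa4 and Anxa7, and in 5 of the 10 member windows, against 35.7% of all windows. The STAT letters TTCNNNGAA were found in 0 of 8 genes and 0 of the 10 member windows, against 8.3% of all windows. The TATAAA of Anxa2 lies in bases left out above. Its GGGCGG letters, at -190, -48 and -24, also lie outside the printed bases. These are matches of letters and not measured sites.

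The libraries held 15650822 to 22406226 estimated counts. Fabp4 itself had 24 to 63 counts in the ICH-Fabp4fl/fl mice and 3 to 10 in the ICH-Fabp4CKO mice, against 1 to 2 and 0 in the respective sham mice. Some libraries stood apart. Y-linked genes had 1 count in ICH-Fabp4CKO mouse 1 and 1302 to 2251 elsewhere. The mitochondrial share was 16.3% in ICH-Fabp4fl/fl mouse 1 and 7.9% to 11.9% in the others. Choroid plexus markers summed to 870.0 to 3233 CPM in the Sham-Fabp4fl/fl mice and to at most 54.1 CPM in any other mouse. Neuron and astrocyte markers were present in all libraries, at sums of at least 1573 and 3346 CPM. The titles of the 3 ICH-Fabp4fl/fl libraries carry an extra suffix whose meaning is not given in the sources used here, and anything it stands for cannot be told apart from that group. Levels are given as CPM, the usual library-size-scaled counts, with TMM factors over the 12 libraries, in the order of mouse 1, 2 and 3.

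The first comparison asked how these genes changed with ICH in mice with intact Fabp4. All 4 S100A members and 5 of the 6 annexins were higher in ICH-Fabp4fl/fl than in Sham-Fabp4fl/fl mice, by log2 fold changes (given with their standard error, SE) of 1.58 to 4.84, and none was lower. Anxa7 was the exception. This count of 9 of 10 stands against 26.2% of the 14719 genes tested that were higher (Benjamini-Hochberg adjusted p under 0.05 in the quasi-likelihood F-test of edgeR, which gave each adjusted p below unless another tool is named). For the same 9 genes the ICH and sham mice did not overlap, which was so for 61.9% of all genes. The median log2 fold change was 4.29 for the S100A members and 3.17 for the annexins, against 0.02 over all genes tested.

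In Fabp4CKO mice all 10 members were higher after ICH, by log2 fold changes of 0.68 to 5.24, where 24.5% of the 14737 genes tested were higher. None of the 10 overlapped between sham and ICH, as was so for 62.1% of genes. The medians were 3.64 for the S100A members and 3.89 for the annexins, against 0.01 over all genes. Leaving out any one of the 3 Sham-Fabp4CKO mice left 5 members past the threshold, although all 10 kept their direction. The share of all genes past the threshold was not counted in these fits. A drop particular to the members thus cannot be told from a drop over all genes. The members that no longer passed had adjusted p-values of 0.0506 to 0.119 in these fits. The count was 8 without ICH-Fabp4CKO mouse 1 and 9 without mouse 3. Cell type markers moved with ICH too. All 12 monocyte and macrophage markers were higher in both genotypes, with sums of 95.5 to 152 CPM in Sham-Fabp4fl/fl and 1278 to 3710.1 CPM in ICH-Fabp4fl/fl mice. In Fabp4CKO mice the sums were 89.5 to 92.3 CPM in sham and 1411 to 11157 CPM in ICH. Of the 9 endothelial markers 9 were higher in Fabp4fl/fl and 5 in Fabp4CKO mice, and of 10 neuron markers 6 and 0 were lower. All 8 choroid plexus markers were lower in Fabp4fl/fl mice, with a median log2 fold change of -4.93. In Fabp4CKO mice 6 choroid plexus markers were tested, of which 3 were lower and 1 higher. Their part in the members' changes was not tested.

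S100a11, whose product binds annexin A1, had the largest log2 fold change of the 10 members in Fabp4fl/fl mice. Its levels in Fabp4fl/fl mice were 6.02, 5.31 and 5.06 CPM in sham and 247, 166 and 74.99 CPM in ICH. In Fabp4CKO mice they were 4.99, 4.52 and 5.33 CPM in sham and 87.4, 32.9 and 87.8 CPM in ICH. The sham mice of both genotypes lay close together and the ICH mice were spread over a wide range, far above them. The change on the log2 scale was 4.84 (SE 0.43, adjusted p = 0.000408) in Fabp4fl/fl and 3.81 (SE 0.42, adjusted p = 0.00549) in Fabp4CKO mice.

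S100a6, which encodes calcyclin, a protein of dividing and stressed cells that binds the CacyBP/SIP ubiquitin ligase adaptor, followed. Its levels in Fabp4fl/fl mice were 5.49, 4.77 and 3.87 CPM in sham and 149, 91.3 and 71.2 CPM in ICH. In Fabp4CKO mice they were 3.75, 3.67 and 4.28 CPM in sham and 64.1, 27.7 and 37.3 CPM in ICH. Every ICH mouse was above every sham mouse, and all 3 ICH-Fabp4CKO mice were below all 3 ICH-Fabp4fl/fl mice. The ICH groups did not overlap, in either direction, for 20.0% of all genes. The log2 fold change with ICH was 4.41 (SE 0.31, adjusted p = 0.000305) in Fabp4fl/fl and 3.47 (SE 0.35, adjusted p = 0.00478) in Fabp4CKO mice.

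S100a10, the annexin A2 partner, had the highest sham level of the S100A members per kilobase of exon and the smallest rise among them. Its levels in Fabp4fl/fl mice were 12.7, 12.5 and 11.7 CPM in sham and 137, 85.7 and 49.9 CPM in ICH. The Fabp4CKO mice had 13.2, 15.05 and 14.2 CPM in sham and 66.99, 32.6 and 49.6 CPM in ICH. The groups with and without ICH were well apart in both genotypes, with ICH-Fabp4CKO mouse 2 the lowest of the ICH mice. With ICH the log2 fold change was 2.83 (SE 0.34, adjusted p = 0.000913) in Fabp4fl/fl and 1.81 (SE 0.27, adjusted p = 0.00801) in Fabp4CKO mice.

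S100a4, which encodes a protein known from motile cells and infiltrating leukocytes and binds non-muscle myosin, had few counts in sham tissue. Its levels in Fabp4fl/fl mice were 1.69, 0.493 and 0.775 CPM in sham, from 9 to 35 counts, and 25.9, 16.5 and 13.1 CPM in ICH. The Fabp4CKO mice had 0.832, 0.403 and 0.2299 CPM in sham, from 5 to 18 counts, and 22.6, 14.7 and 14.6 CPM in ICH. Unlike the other 3 S100A members, S100a4 had nearly the same range in the ICH mice of both genotypes. The log2 fold change was 4.16 (SE 0.46, adjusted p = 0.000747) in Fabp4fl/fl and 5.13 (SE 0.47, adjusted p = 0.00478) in Fabp4CKO mice.

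Anxa2 encodes the annexin that binds S100A10 and tissue plasminogen activator at the cell surface, and had the largest log2 fold change of the annexins in Fabp4fl/fl mice. Its levels there were 19.2, 14.5 and 16.9 CPM in sham and 389, 192 and 119.9 CPM in ICH. In Fabp4CKO mice they were 11.7, 14.02 and 16.05 CPM in sham and 313, 65.8 and 353 CPM in ICH. The ICH-Fabp4CKO mice were far apart, with mouse 2 below every ICH-Fabp4fl/fl mouse. Anxa2 rose with ICH by a log2 fold change of 3.74 (SE 0.42, adjusted p = 0.000793) in Fabp4fl/fl and 4.13 (SE 0.65, adjusted p = 0.00915) in Fabp4CKO mice.

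Anxa1 encodes the pro-resolving annexin that acts on formyl peptide receptors and is abundant in myeloid cells. Its levels in Fabp4fl/fl mice were 1.69, 2.68 and 1.03 CPM in sham and 27.2, 17.8 and 6.32 CPM in ICH. The Fabp4CKO mice had 1.25, 0.851 and 0.9196 CPM in sham and 38.3, 4.96 and 70.9 CPM in ICH. The ICH-Fabp4CKO mice covered a 14.3-fold range, the widest of any member in that group, and held both the lowest and the highest ICH mouse. Anxa1 rose by a log2 fold change of 3.19 (SE 0.57, adjusted p = 0.00464) in Fabp4fl/fl and 5.24 (SE 1.00, adjusted p = 0.0139) in Fabp4CKO mice.

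Anxa3 and Anxa4, annexins known from microglia and myeloid cells and from epithelial membranes respectively, rose in both genotypes. Anxa3 had 11.5, 11.6 and 9.296 CPM in Sham-Fabp4fl/fl and 143, 101 and 52.2 CPM in ICH-Fabp4fl/fl mice. It had 9.85, 9.94 and 9.33 CPM in Sham-Fabp4CKO and 133, 46.8 and 184 CPM in ICH-Fabp4CKO mice. The sham values of Anxa3 overlapped between the genotypes. Anxa4 had 6.02, 4.601 and 3.56 CPM in Sham-Fabp4fl/fl and 67.5, 50.01 and 27.4 CPM in ICH-Fabp4fl/fl mice. It had 2.17, 2.64 and 3.45 CPM in Sham-Fabp4CKO and 88.98, 23.9 and 152 CPM in ICH-Fabp4CKO mice. For Anxa4 the sham mice of the 2 genotypes did not overlap, as was so for 14.8% of all genes. The log2 fold changes in Fabp4fl/fl and Fabp4CKO mice were 3.14 (adjusted p = 0.0007204) and 3.65 (adjusted p = 0.00736) for Anxa3. They were 3.30 (adjusted p = 0.000661) and 5.0005 (adjusted p = 0.00768) for Anxa4.

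Anxa5, which binds phosphatidylserine and is used to stain dying cells, and Anxa7, which takes part in vesicle fusion, were the members with the highest sham levels per kilobase, and had the smallest changes of the 10 members in Fabp4fl/fl mice. Anxa5 had 88.9, 77.3 and 53.1 CPM in Sham-Fabp4fl/fl and 305, 220.2 and 154 CPM in ICH-Fabp4fl/fl mice. It had 59.3, 49.8 and 67.5 CPM in Sham-Fabp4CKO and 299, 122 and 414 CPM in ICH-Fabp4CKO mice. Anxa5 thus rose in both genotypes, by log2 fold changes of 1.58 (adjusted p = 0.00473) and 2.24 (adjusted p = 0.0153). Anxa7 had 72.8, 88.1 and 71.99 CPM in Sham-Fabp4fl/fl and 128, 104 and 86.5 CPM in ICH-Fabp4fl/fl mice. It had 72.5, 77.5 and 77.3 CPM in Sham-Fabp4CKO and 129.8, 93.2 and 141 CPM in ICH-Fabp4CKO mice. Its highest Sham-Fabp4fl/fl mouse was above its lowest ICH-Fabp4fl/fl mouse. The log2 fold change of Anxa7 was 0.41 (SE 0.17, adjusted p = 0.0872) in Fabp4fl/fl mice, and it was 0.52 (adjusted p = 0.0318) without ICH-Fabp4fl/fl mouse 3. In Fabp4CKO mice it was 0.68 (SE 0.18, adjusted p = 0.0318), and the adjusted p was 0.0745 to 0.119 when any one of the mice other than ICH-Fabp4CKO mouse 2 was left out.

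**Figure D1:**
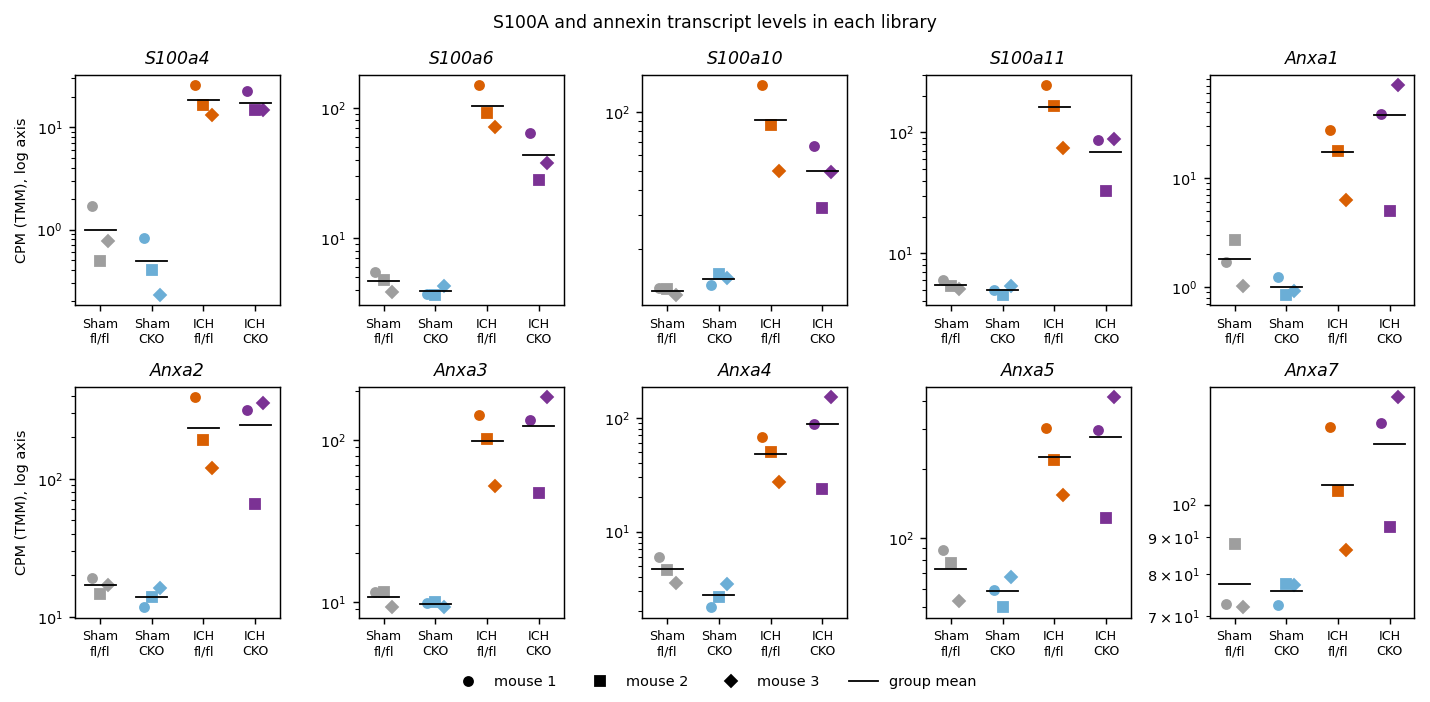
CPM (TMM-scaled, log axis) of each of the 10 members in the 12 libraries, by group, with 1 symbol per mouse and a line at the group mean. S100a6 runs from 71.2 to 149 CPM in ICH-Fabp4fl/fl and from 27.7 to 64.1 CPM in ICH-Fabp4CKO mice, without overlap, whereas the annexins overlap between these groups. Of all genes tested, 20.0% had no overlap between these groups in either direction.

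**Figure D2:**
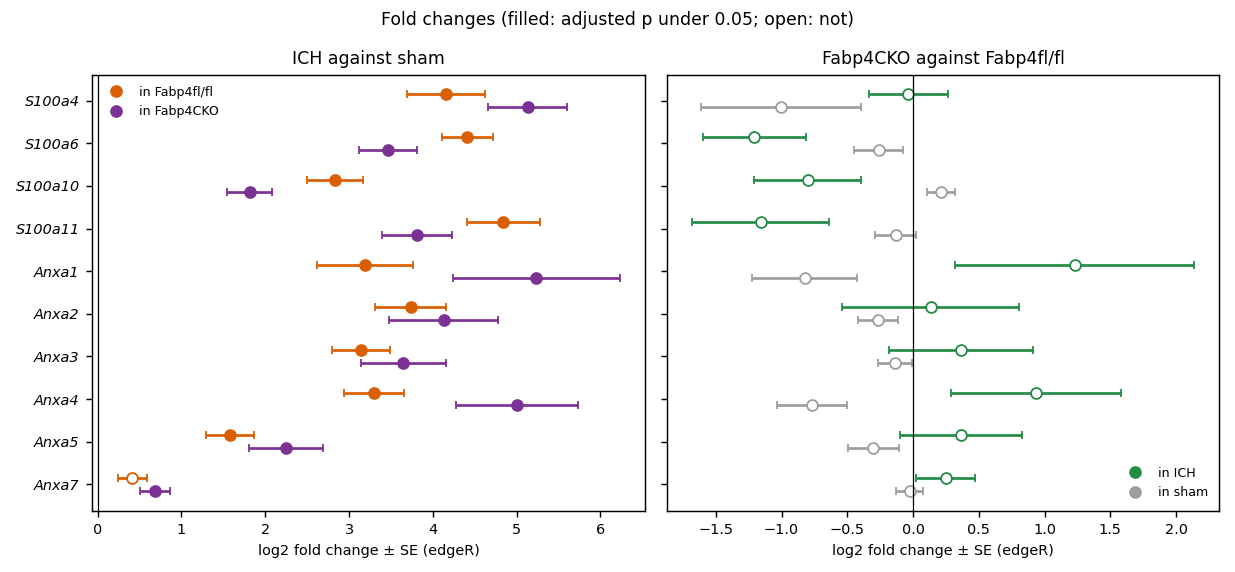
Log2 fold changes with standard errors from edgeR for the 10 members, with ICH against sham on the left and Fabp4CKO against Fabp4fl/fl on the right; filled points have an adjusted p under 0.05. With ICH, 9 members in Fabp4fl/fl and 10 in Fabp4CKO mice are filled, and no point on the right is filled.

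Levels were compared between genes as CPM per kilobase of exon, since the S100A transcripts are much shorter than those of the annexins. In Sham-Fabp4fl/fl mice Anxa5 led with 42.3 ± 10.5 CPM per kb (SD, n = 3), followed by Anxa7 with 25.6 ± 2.99, S100a10 with 15.4 ± 0.644, Anxa2 with 11.7 ± 1.63, S100a11 with 10.7 ± 0.978, S100a6 with 5.82 ± 1.004, Anxa3 with 4.103 ± 0.492, Anxa4 with 2.25 ± 0.587, S100a4 with 1.98 ± 1.25 and Anxa1 with 0.952 ± 0.439 CPM per kb. The mean ± SD ranges of 3 of the 9 pairs of neighbors in this order overlapped, namely Anxa2 with S100a11, Anxa4 with S100a4 and S100a4 with Anxa1. Sham-Fabp4CKO mice had the same order, from 33.99 ± 5.105 CPM per kb for Anxa5 down to 0.532 ± 0.112 for Anxa1, except that S100a11 and Anxa2, which overlapped, changed places. In ICH-Fabp4fl/fl mice S100a11 led with 318 ± 168 CPM per kb, before Anxa2 with 161 ± 96.3, Anxa5 with 131 ± 43.8, S100a6 with 128 ± 50.1 and S100a10 with 113 ± 54.5. The remaining genes were lower, with Anxa3 at 37.6 ± 17.3, S100a4 at 37.1 ± 13.3, Anxa7 at 35.1 ± 6.91, Anxa4 at 22.9 ± 9.55 and Anxa1 at 9.04 ± 5.53 CPM per kb. Of the 9 neighboring pairs 8 overlapped there, and the step from S100a10 to Anxa3 did not. In ICH-Fabp4CKO mice all 9 pairs overlapped. The order there was Anxa2 with 168 ± 107, Anxa5 with 161 ± 84.99, S100a11 with 136 ± 61.8, S100a10 with 62.01 ± 21.5, S100a6 with 53.2 ± 23.3, Anxa3 with 46.1 ± 26.3, Anxa4 with 41.9 ± 30.3, Anxa7 with 40.02 ± 8.26, S100a4 with 34.7 ± 9.21 and Anxa1 with 20.1 ± 17.4 CPM per kb.

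The next comparison asked whether these genes differed between ICH-Fabp4CKO and ICH-Fabp4fl/fl mice. No member passed the adjusted threshold in either direction, and 0% of the 14600 genes tested did so. At an unadjusted p under 0.05, 1777 genes (12.2%) and 1 member, S100a6, would count, and DESeq2 called 255 genes higher and 323 lower at its adjusted threshold but 0 members. With an unadjusted p under 0.05 and a fold of at least 1.5, 1 member (S100a6) was lower, where 4.43% of all genes were. S100a6 was also the only member whose groups did not overlap, against 20.0% of all genes. Its mean was 104 ± 40.5 CPM in ICH-Fabp4fl/fl and 43.1 ± 18.9 CPM in ICH-Fabp4CKO mice (SD, n = 3), and its estimate on the log2 scale was -1.21 (SE 0.39, adjusted p = 0.3503). The log2 fold change of S100a6 was -0.88 to -1.61 when any 1 mouse was left out, and it was -1.61 without ICH-Fabp4CKO mouse 1. The adjusted p of S100a6 was 0.0743 with DESeq2 and 0.0618 with all 12 libraries in one fit, and ran up to 0.686 over the alternatives.

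The estimates of the other members differed in sign between the families, although none passed. S100a11 had -1.16 (SE 0.52, adjusted p = 0.436) and S100a10 -0.80 (SE 0.41, adjusted p = 0.471), while S100a4 was near 0 with -0.04 (SE 0.30, adjusted p = 0.973). Leaving out ICH-Fabp4fl/fl mouse 1, the highest of its group for all 10 members, moved S100a11 to -0.76 and S100a10 to -0.41. All 6 annexins had estimates above 0, from 0.13 for Anxa2 to 1.23 for Anxa1, with standard errors of 0.22 to 0.91 and adjusted p-values of 0.587 to 0.956. The median was -0.98 for the S100A members, 0.36 for the annexins and 0.06 for all genes. With any one mouse left out, the estimate of Anxa1 ran from 0.41 to 1.75 and that of Anxa4 from 0.29 to 1.39. Without ICH-Fabp4CKO mouse 3 the estimates of Anxa2, Anxa3 and Anxa5 turned to -0.23, -0.07 and -0.04.

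Short genes as a class had a median estimate below 0. The 4 S100A members have 498 to 809 exon bases and the annexins 1447 to 3032. Over all 557 tested genes of at most 1000 exon bases, the median log2 fold change between the ICH groups was -0.31 and 79.9% lay below 0, against 43.8% of all genes. For the ribosomal protein genes, 82.8% lay below 0. Among the S100A members, S100a4 (498 bases) had -0.04 and S100a11 (511 bases) had -1.16. S100a10 (802 bases) had -0.80 and S100a6 (809 bases) had -1.21. The part of transcript length was not tested. Endothelial markers moved in the same direction: all 9 of the list had estimates below 0, with 0 past the adjusted threshold, and their summed level was 1304, 851 and 564 CPM in ICH-Fabp4fl/fl and 436, 297 and 373 CPM in ICH-Fabp4CKO mice, without overlap. For the monocyte and macrophage markers 10 of 12 estimates were above 0, and the sums were 3710.1, 2689 and 1278 against 6991, 1411 and 11157 CPM. Oligodendrocyte markers had 8 of 8 estimates below 0 and sums of 29370.5, 25149.9 and 19328 against 11278, 11860.4 and 7329 CPM, and mural markers 7 of 8 and 1135, 902 and 603 against 489.9, 322 and 563 CPM, both without overlap. The part of these cell types was not tested.

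The interaction of ICH and genotype asks whether the change with ICH differed between Fabp4CKO and Fabp4fl/fl mice. No member passed, where 0.0133% of the 15089 genes tested were higher and 0.00663% lower. At an unadjusted p under 0.05 it would be 1500 genes, and DESeq2 called 183 genes higher and 83 lower, but 0 members. S100a10 was the 1 member that was lower at an unadjusted p under 0.05 with a fold of at least 1.5, where 3.29% of all genes were, with -1.07 (SE 0.46, adjusted p = 0.476). The values were -0.997 for S100a6, -1.09 for S100a11 and 0.92 for S100a4. Their size depended on single mice: with any one mouse left out they ran from -1.37 to -0.62 for S100a6, from -1.43 to -0.62 for S100a11, from -1.36 to -0.62 for S100a10 and from 0.28 to 1.53 for S100a4. For the annexins they were between 0.23 for Anxa7 and 1.99 for Anxa1. A difference between the genotypes in the change with ICH was thus not detected for any member with 3 mice per group. Both ICH comparisons and the interaction share libraries with one another.

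The balance of the families within a library does not depend on how libraries are scaled, and is given in CPM without regard to gene length. The 4 S100A genes summed to 559, 359.6 and 209 CPM in ICH-Fabp4fl/fl and to 241, 108 and 189 CPM in ICH-Fabp4CKO mice. The 6 annexins summed to 1060.2, 686 and 446 CPM and 1002, 357 and 1314 CPM in the same mice. The S100A sum of ICH-Fabp4fl/fl mouse 3 was within the ICH-Fabp4CKO range, and the annexin sums overlapped widely. The ratio of the S100A sum to the annexin sum was 0.129, 0.116 and 0.137 in Sham-Fabp4fl/fl and 0.145, 0.153 and 0.138 in Sham-Fabp4CKO mice. It was 0.527, 0.524 and 0.469 in ICH-Fabp4fl/fl and 0.241, 0.302 and 0.144 in ICH-Fabp4CKO mice. All 3 ICH-Fabp4fl/fl mice were thus above all others, and ICH-Fabp4CKO mouse 3 was within the range of the sham mice.

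S100a6, S100a10 and S100a11 carried this difference and S100a4 did not. Per 100 CPM of summed annexins, S100a11 had 23.3, 24.2 and 16.8 CPM in ICH-Fabp4fl/fl and 8.72, 9.23 and 6.68 CPM in ICH-Fabp4CKO mice. S100a6 had 14.1, 13.3 and 15.95 CPM and 6.401, 7.77 and 2.84 CPM. S100a10 had 12.9, 12.5 and 11.2 CPM and 6.69, 9.13 and 3.78 CPM. In these 3 genes the genotypes did not overlap. S100a4 had 2.44, 2.41 and 2.93 CPM and 2.25, 4.11 and 1.11 CPM, with the ICH-Fabp4fl/fl mice inside the ICH-Fabp4CKO range. Of all 14600 genes, 4.51% had a ratio to the annexin sum that was lower in every ICH-Fabp4CKO than in every ICH-Fabp4fl/fl mouse, and of the 557 genes of at most 1000 exon bases 9.52% did. Over single pairs of an S100A gene and an annexin, 14 of 24 ratios were lower in every ICH-Fabp4CKO mouse: 6 of 6 for S100a11, 4 of 6 each for S100a6 and S100a10, whose ratios to Anxa1 and Anxa2 overlapped, and 0 of 6 for S100a4. The ratios were chosen after the values were seen and are a description.

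**Figure D3:**
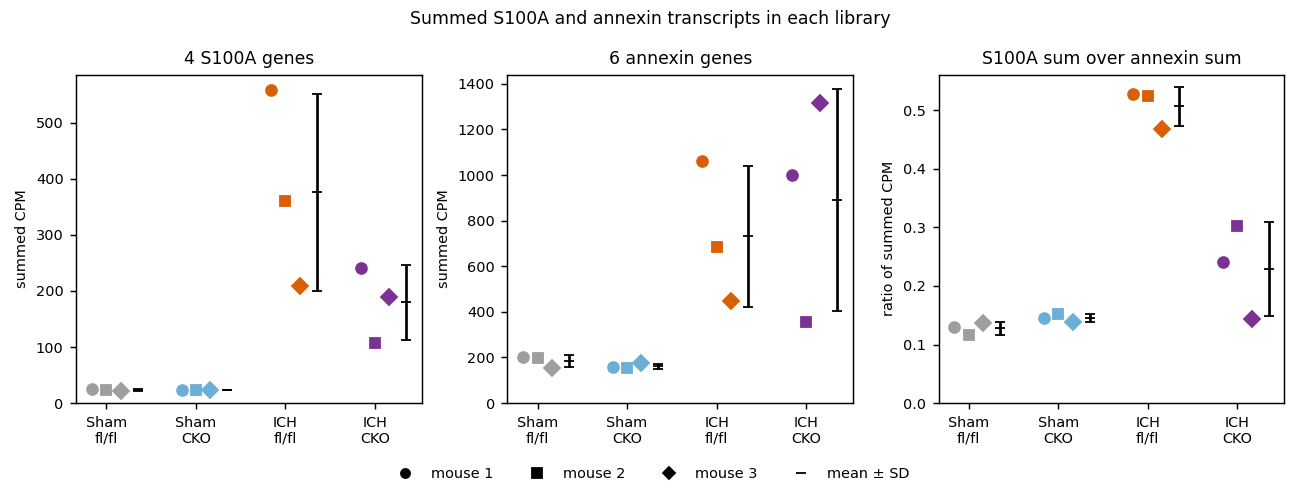
Summed CPM of the 4 S100A genes, summed CPM of the 6 annexins and the ratio of these sums, per library and with the mean ± SD of each group (n = 3). The ratio lies between 0.469 and 0.527 in ICH-Fabp4fl/fl and between 0.144 and 0.302 in ICH-Fabp4CKO mice, and between 0.116 and 0.153 in the sham mice.

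The partners S100a10 and Anxa2 changed in unequal measure. The ratio of S100a10 to Anxa2 CPM was 0.659, 0.864 and 0.692 in Sham-Fabp4fl/fl and 1.13, 1.07 and 0.885 in Sham-Fabp4CKO mice. After ICH it was 0.352, 0.447 and 0.416 in Fabp4fl/fl and 0.214, 0.495 and 0.141 in Fabp4CKO mice. Every ICH mouse was below every sham mouse, which was so for the ratio to Anxa2 of 89.3% of all 15089 genes. Anxa2 rose more than most genes, so that a falling ratio to it was common. The ICH-Fabp4CKO mice had the lowest and the highest ratio of the 6 ICH mice.

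The sham groups were compared in the same way. No member passed when Sham-Fabp4CKO was compared with Sham-Fabp4fl/fl, where 0.111% of the 14395 genes tested were lower and 0% higher. At an unadjusted p under 0.05, 1471 genes would count, and DESeq2 called 11 genes higher and 139 lower, but 0 members. Anxa4 was the 1 member that was lower at an unadjusted p under 0.05 with a fold of at least 1.5, where 3.23% of genes were. Anxa4 had 4.73 ± 1.24 CPM in Sham-Fabp4fl/fl and 2.75 ± 0.645 CPM in Sham-Fabp4CKO mice (SD, n = 3), and its estimate on the log2 scale was -0.77 (SE 0.27, adjusted p = 0.479). Anxa4 and S100a10 were the 2 members whose sham groups did not overlap, against 14.8% of all genes. S100a10 was slightly higher in Sham-Fabp4CKO mice, with 0.21 (SE 0.11, adjusted p = 0.508). The absence of calls depended on 1 mouse, Sham-Fabp4fl/fl mouse 3, which had the lowest level in its group for 8 of the 10 members. Without this mouse, Anxa4 (-0.93, adjusted p = 0.0311) and Anxa5 (-0.48, adjusted p = 0.0276) were lower. The share of all genes called in that fit was not counted. The Sham-Fabp4fl/fl mice were those with choroid plexus transcripts, at 870.0, 1650.2 and 3233 CPM, and Sham-Fabp4fl/fl mouse 3, which had most of them, had the lowest Anxa4 of its group. Their part in these levels was not tested.

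The members moved together from mouse to mouse. ICH-Fabp4fl/fl mouse 1 was the highest of its group and mouse 3 the lowest for all 10 members. In ICH-Fabp4CKO mice, mouse 2 was the lowest for 9 members, all but S100a4, and mouse 3 the highest for 7. After the group means were removed from the log2 CPM values, the annexins correlated with one another at r = 0.86 to 0.97 (median 0.93, 15 pairs, 12 libraries). The S100A genes correlated with one another at 0.40 to 0.93 (6 pairs), and the pairs across the families at 0.07 to 0.95 (24 pairs). S100a4 stood apart, with 0.07 to 0.48 over its 9 pairs, while the 36 pairs without it had 0.67 to 0.97. The sham libraries are among the 12, and S100a4 had only 5 to 35 counts there. The part of its low counts was not tested. These values are a description, since the genes of a library share its depth, its piece of tissue and its lesion.

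Over all 12 libraries, the gene outside the list whose log2 CPM was most like that of a member was named for each. These were Dhrs1 for S100a6 (Pearson's r = 0.996), Efemp2, an extracellular matrix gene, for S100a11 (0.997), Ets1, an endothelial and lymphoid transcription factor, for S100a10 (0.992) and Hcar2, a receptor of myeloid cells, for S100a4 (0.991). For the annexins they were Adam9 for Anxa1 (0.995), Tgm2 for Anxa2 (0.997), Shisa5 for Anxa3 (0.998), Nrros, a gene of microglia and macrophages, for Anxa4 (0.997), Litaf for Anxa5 (0.994) and Pira13 for Anxa7 (0.991). With 12 libraries in a sham and an ICH cluster, these values include the step between the clusters, and each is the highest among all genes. For Anxa7 the gene was Katna1 (0.98) at a prior count of 0.5.

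Within the 6 ICH libraries, the members were set beside the summed markers of 14 cell types and states. S100a6 varied 5.39-fold over these libraries, and its ratio to the endothelial sum varied 1.58-fold, from 0.0933 to 0.147, whereas its ratio to the monocyte and macrophage sum varied 16.6-fold. A ratio to the endothelial sum that varied no more than this was found for 0.486% of the 14600 genes. S100a10 varied 4.20-fold, and 1.65-fold relative to the mural markers of pericytes and smooth muscle and 1.74-fold relative to the endothelial ones (1.32% and 0.904% of genes). S100a11 varied 7.50-fold, and 2.12-fold relative to the endothelial sum (2.64% of genes). For these 3 genes the steadiest ratios were those to vessel markers.

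For several annexins the steadiest ratio was that to myeloid markers. Anxa4 varied 6.34-fold over the ICH libraries and 1.68-fold relative to the monocyte and macrophage sum, which 0.411% of genes equaled or went below, but 8.38-fold relative to the endothelial sum. Anxa1 varied 14.3-fold, and 2.09-fold relative to the monocyte and macrophage sum (1.14% of genes). Its ratio to the fibroblast and meningeal sum varied 2.42-fold, which fewer genes (0.116%) equaled or went below. Anxa3 varied 3.93-fold, and 2.48-fold relative to the monocyte and macrophage sum (2.17% of genes). Anxa5 was steadiest against the microglial markers, at 2.205-fold (8.6% of genes), and Anxa2 against the proliferation genes, at 3.04-fold (2.46% of genes), so that it followed neither pattern closely. S100a4 and Anxa7 varied only 1.98-fold and 1.63-fold themselves, so that their ratios also carry the variation of the marker sums. The lists were searched for the steadiest ratio with the values known, the ratios are a description, and no cell of origin was measured.

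**Figure D4:**
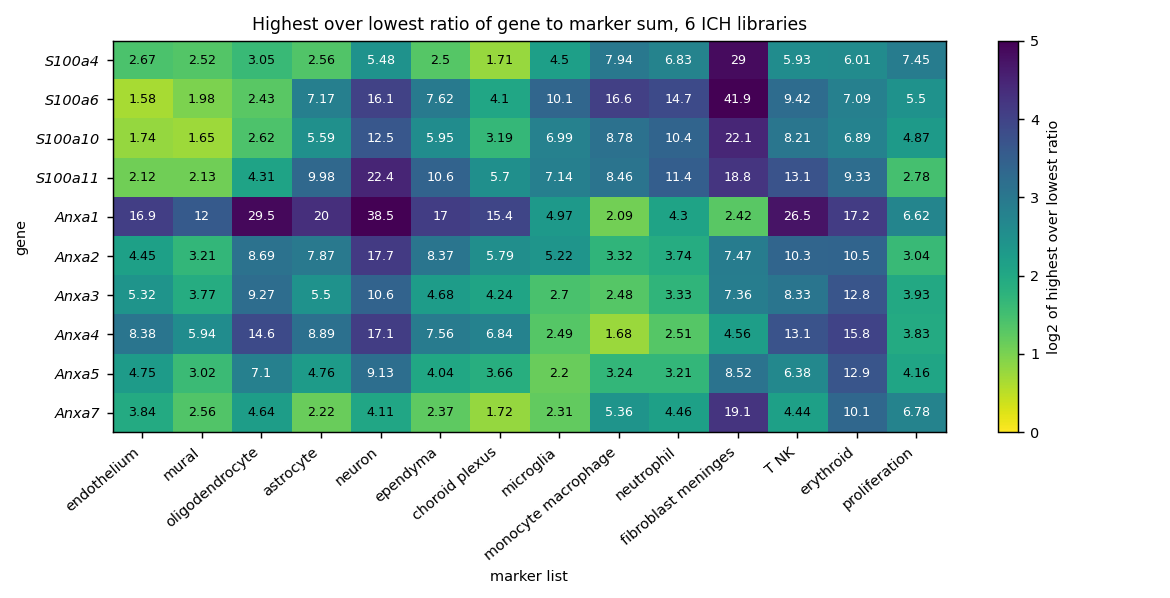
For each member (rows) and each marker list (columns), the highest over the lowest ratio of the member's CPM to the summed CPM of the list over the 6 ICH libraries; the color gives the log2 of the printed value. The lowest values of S100a6, S100a10 and S100a11, 1.58, 1.65 and 2.12, stand under vessel markers, and those of Anxa1, Anxa3 and Anxa4, 2.09, 2.48 and 1.68, under monocyte and macrophage markers.

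Other S100 genes gave a wider view of the family, with each change given on the log2 scale here and for the partners that follow. Of 13 further S100 genes in the table, 7 passed the filter in Fabp4fl/fl mice and 6 of them rose with ICH. S100a8 and S100a9, which together form calprotectin of neutrophils and monocytes, rose by 4.46 (adjusted p = 0.00832) and 2.73 (adjusted p = 0.0176) in Fabp4fl/fl mice. In Fabp4CKO mice they rose by 7.22 (adjusted p = 0.00759) and 6.47 (adjusted p = 0.0121). Their sham counts were low. S100a8 had 0, 3 and 3 in Sham-Fabp4fl/fl and 1, 4 and 1 in Sham-Fabp4CKO mice, and passed the filter only through its ICH counts. S100a9 had 15, 7 and 18 in Sham-Fabp4fl/fl and 2, 21 and 3 in Sham-Fabp4CKO mice. S100a1 rose by 1.22 (adjusted p = 0.00152), S100a3 by 1.90 (adjusted p = 0.0413), S100a13, which takes part in the release of FGF1, by 2.03 (adjusted p = 0.000646), and S100a16 by 1.57 (adjusted p = 0.000947). S100b, the astrocyte and oligodendrocyte member, had 0.33 (adjusted p = 0.317). In Fabp4CKO mice 5 of 6 tested S100 genes rose, S100a1, S100a8, S100a9, S100a13 and S100a16, and S100b had 0.27 (adjusted p = 0.181).

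Between the ICH groups, 0 of these 7 S100 genes passed, also 0 of the 3 further annexins, and the values differed in sign. S100a13 had 60.8, 35.9 and 43.3 CPM in ICH-Fabp4fl/fl and 28.7, 18.1 and 23.5 CPM in ICH-Fabp4CKO mice, a log2 fold change of -0.94 (adjusted p = 0.318). S100a16 had 245, 224 and 199 CPM and 151, 117 and 97.1 CPM, a log2 fold change of -0.81 (adjusted p = 0.314). In these CPM values 4 of the 7 genes had no overlap between the ICH groups, S100a13, S100a16, S100b (-0.40) and S100a1 (-0.33). With TMM factors of the 6 ICH libraries alone S100a1 overlapped, which leaves 3 of 7, where 20.0% of all genes did not overlap. S100a9 had 9.71, 2.87 and 1.75 CPM and 50.8, 6.18 and 49.4 CPM, with 2.98 (adjusted p = 0.347), and S100a8 had 2.59 (adjusted p = 0.3503). For S100a9 the ICH-Fabp4CKO mice 1 and 3 were high and mouse 2 was within the range of the ICH-Fabp4fl/fl mice.

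Of 6 further annexins, 3 passed the filter in Fabp4fl/fl mice and 1 rose, Anxa9, from 0.337, 0.383 and 0.103 CPM to 2.53, 1.12 and 1.12 CPM, with 2.45 (adjusted p = 0.0145). Anxa6 had 0.44 (adjusted p = 0.0567) and Anxa11 0.13 (adjusted p = 0.686). In Fabp4CKO mice 2 of 4 rose, Anxa9 with 3.70 (adjusted p = 0.00759) and Anxa11 with 1.22 (adjusted p = 0.02905), while Anxa6 had 0.38 (adjusted p = 0.07302) and Anxa8 -0.05 (adjusted p = 0.967). Anxa6 did not pass in either genotype, and the interaction of Anxa11 was 1.05 (adjusted p = 0.436).

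Partners and receptors of S100 proteins did not move in one direction. In Fabp4fl/fl mice 5 of 12 were higher with ICH and 3 lower, where 26.2% of all genes tested were higher and 19.3% lower. In Fabp4CKO mice, for this list and those that follow, the shares over all genes were 24.5% higher and 11.1% lower. Tlr4, a receptor of S100A8 and S100A9, rose by 3.36 (adjusted p = 0.000791), Myh9, the non-muscle myosin heavy chain bound by S100A4, by 2.14 (adjusted p = 0.000684), and Ahnak, a scaffold of the S100A10 and annexin A2 complex, by 2.05 (adjusted p = 0.00228). The 3 lower genes were Htr4, a serotonin receptor, with -2.46 (adjusted p = 0.00908), Kcnk3, a potassium channel, with -1.61 (adjusted p = 0.01996), and Sugt1 with -0.47 (adjusted p = 0.0314). In Fabp4CKO mice 5 were higher and 3 lower. Ager, which encodes RAGE, had 0.45 (adjusted p = 0.576) in Fabp4fl/fl and rose by 3.48 (adjusted p = 0.00589) in Fabp4CKO mice, and its interaction was 2.97 (adjusted p = 0.307). Its ICH levels overlapped between the genotypes, with 4.29, 1.56 and 1.22 CPM in Fabp4fl/fl and 3.75, 3.52 and 3.12 CPM in Fabp4CKO mice. The sham mice had few Ager counts, 42, 42 and 12 in Fabp4fl/fl and 5, 4 and 11 in Fabp4CKO mice.

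Partners and receptors of annexins, and the plasminogen system, were higher or did not pass, apart from 1 gene. Of 5 annexin partners tested in Fabp4fl/fl mice 3 rose, namely Dysf, the dysferlin gene of membrane repair, with 2.59 (adjusted p = 0.000979), Plgrkt, a plasminogen receptor, with 1.41 (adjusted p = 0.00312), and Sri with 0.78 (adjusted p = 0.00782). In Fabp4CKO mice 5 of 7 rose, among them the formyl peptide receptor genes Fpr1 and Fpr2, which did not pass the filter in Fabp4fl/fl mice. Fpr1 had 2, 1 and 1 counts in Sham-Fabp4CKO and 164, 12 and 44 in ICH-Fabp4CKO mice, and Fpr2 1, 1 and 1 and 141, 18 and 47. Both passed the filter only through their ICH counts, so their rise is not independent of passing it. Of 6 genes of the plasminogen system 4 rose in Fabp4fl/fl mice, among them the urokinase receptor gene Plaur at 5.14 (adjusted p = 0.00175) and the urokinase gene Plau at 3.42 (adjusted p = 0.000736). Serpini1, which encodes neuroserpin, fell, with -1.43 (adjusted p = 0.0159). In Fabp4CKO mice 4 of 7 rose and 0 fell.

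Of 11 membrane repair genes tested in Fabp4fl/fl mice 4 rose and 1 fell, not far from the shares over all genes. Myof, which encodes myoferlin, had 2.99 (adjusted p = 0.000913), and the caveolar genes Cav1 and Cavin1 had 2.18 (adjusted p = 0.000946) and 2.03 (adjusted p = 0.00202). Otof fell, with -2.84 (adjusted p = 0.00913). In Fabp4CKO mice 6 of 11 rose and 0 fell. Between the ICH groups 0 genes of these 4 lists passed, by edgeR. The ICH groups did not overlap for 2 of the 11 membrane repair genes, Cav1 and Cavin1, with -0.98 and -1.07, a share near the 20.0% of all genes.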

How the data were processed

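The data are bulk poly(A) RNA-seq of 12 mice, each library being 1 mouse per the labels. The authors deposited expected counts (estimated counts per gene, not normalized) for 21956 genes with Ensembl identifiers and symbols. The submitters' processing notes name Bowtie2 2.2.8, HISAT2, StringTie 1.3.1 and DESeq2, with no role or order, and the genome build is not given in the sources used here. Per library, 7.36% to 8.69% of the deposited values were not whole numbers. All 12 columns were used, and they hold 15650822 to 22406226 counts. The counts were rounded to whole numbers, which limits the precision of S100a4 and Anxa1 in sham mice, and no interval is given beyond the spread between mice.

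The tests were the quasi-likelihood F-test of edgeR 4.0.16 in R 4.3.3 (TMM scaling, and filterByExpr set to 10 counts and to 15 counts in total), fitted to the 6 libraries of each comparison and to all 12 for the interaction. Adjusted p-values are Benjamini-Hochberg values over all genes tested, with a threshold of 0.05. Overlap between groups, for members and for all genes, was judged on CPM with TMM factors of the libraries compared, and all 12 libraries' factors gave the same counts of members. Standard errors are the log2 fold change divided by the square root of F. The fits were tested on simulated data. The ratios to the annexins and to marker sums were added after the values were seen. DESeq2 1.42.0 was an alternative. The members and the lists of relatives, partners and markers were chosen with earlier results of these data known. The genes named are all members, relatives that pass the filter, of each partner list at most 3 genes per direction with the largest change at an adjusted p under 0.05 in Fabp4fl/fl mice, and the 1 most similar gene of each member; Ager, Fpr1, Fpr2, and the remarks on overlap of relatives and membrane repair genes were added after the values were seen. Of the genes that this rule names, 1 is not reported here. Exon lengths come from GENCODE M21 and promoter sequences from RefSeq (GRCm38.p6). Exons of predicted genes overlap those of S100a4 and Anxa3 on the same strand and those of Anxa2 and Anxa4 on the opposite strand. Reads in these overlaps cannot be told apart without strand for Anxa2 and Anxa4, nor by strand for S100a4 and Anxa3. Alternatives were another scaling, filter, threshold or fit, the replicate block and each mouse left out. Python 3.11.15, pandas 2.3.3 and matplotlib 3.10.9 were used for summaries and figures.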

Additional observations from a re-analysis of the deposited data

How the results depend on the processing

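Relative log expression scaling, total counts without TMM, no filter, at least 10 counts in every library (which S100a4 passed only between the ICH groups), DESeq2 and one fit of all 12 libraries changed no call of a member. With an unadjusted p under 0.05 and a fold of at least 1.5, the number of members lower was 1 between the ICH groups, 1 between the sham groups and 1 for the interaction, against 0. Leaving out 1 mouse at a time, 9 to 10 members were higher with ICH in Fabp4fl/fl and 5 to 10 in Fabp4CKO mice. Members lower in Sham-Fabp4CKO mice numbered 0 to 2. The shares of all genes called were not counted in these fits. Over the same fits the log2 fold change between the ICH groups was -0.27 to 0.26 for S100a4, -0.23 to 0.68 for Anxa2, -0.068 to 0.75 for Anxa3 and -0.041 to 0.72 for Anxa5. It was -0.080 to 0.081 for Anxa7 between the sham groups and -0.025 to 0.95 for the Anxa2 interaction. The cause was not tested. Group levels moved by less than 1 SD under total counts, and a prior count of 0.5 changed the most similar gene of Anxa7 only (Katna1, 0.98). Over all genes, edgeR and DESeq2 differed in their counts of calls, with 0 against 255 higher and 323 lower between the ICH groups, 16 against 11 higher and 139 lower between the sham groups and 3 against 183 higher and 83 lower for the interaction. Deviations of same-numbered mice from their group means correlated at -0.575 to 0.311, and in no comparison did all 3 pairs exceed 0.1, so the numbers were not taken to pair the mice. With the replicate block, Anxa2 between the ICH groups was -0.062, and Anxa7 in Fabp4CKO mice had an adjusted p of 0.0588, and no other call of a member changed. With 3 mice per group and S100a4 at 5 to 35 counts in sham mice, small differences were not detectable.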
